A study of Mus musculus with 6 samples.

Results

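Mesothelial cells of the proximal pulmonary artery (PA) were taken from single cell RNA sequencing of young and old mice. A barcode was kept if it held at least 500 UMIs (unique molecular identifiers, each 1 captured transcript), at least 300 genes and at most 20% mitochondrial UMIs. It was called mesothelial if it held at least 3 UMIs of Msln, Upk3b, Nkain4, Lrrn4, Wt1, Gpm6a and Muc16 together, with at least 2 of these 7 genes detected. These UMIs also had to exceed 2 times those of Cdh5, Myh11, Pdgfra, Ptprc, C1qa, Cd79a and Scgb1a1, which mark endothelial, smooth muscle, fibroblast, leukocyte, macrophage, B and airway secretory cells. The cells were thus selected on the UMI counts of these 14 genes in each barcode. The rule found 793 cells among 15622 kept barcodes, 5.08% of all.

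The mice were wild-type C57BL/6J with no genetic change. Proximal PAs were cut out with their surrounding tissue, minced, and digested with collagenase and elastase in every group. Young mice were 3 months old (libraries young 1 and young 2), and old mice were 20, 24, 28 and 27 months old (old 1, old 2, old 3 and old 4). Matched by age to the list of animals, each old library came from a mouse of its own, old 3 from a female and the others from males. Sex is in the labels for young 2 and old 3 (f) and old 4 (m) only, and the label of young 1 gives none. Young 2 takes the only young female of that list, so young 1 matches a male by the list. A further young mouse of the study is not analysed here. In young 1, young 2 and old 1 to old 4, the kept barcodes numbered 2722, 935, 1233, 2868, 4067 and 3797, and the total UMIs were 9487564, 6355125, 7042921, 12851645, 50436562 and 36218542.

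Mesothelial cells form the single flat layer that covers the lung, the heart and the walls of the body cavities. They have both epithelial features, such as keratins, junctions and a brush of surface glycoproteins, and mesenchymal ones, such as vimentin and collagen, and they secrete the fluid and lubricants that let organs slide. Wt1, a zinc finger transcription factor, and retinoic acid made by Aldh1a2 are known from the mesothelium of the embryo, which gives rise to some fibroblasts and mural cells.

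Promoters are shown for 3 genes, the rule gene Upk3b, and Cldn15 and Dpp4, which were higher in mesothelial cells than in both fibroblasts and airway epithelial cells. Each run holds 250 bases before and 50 after the start site, in the direction of the gene, from RefSeq on GRCm38.p6. They lie at chr5:136038246-136038545 on the plus strand, chr5:136967619-136967918 on the plus strand and chr2:62412182-62412481 on the minus strand. Capitals mark the letters GGAATG, known from TEAD factors, or AGATAA, known from GATA factors, read on either strand.
Upk3b: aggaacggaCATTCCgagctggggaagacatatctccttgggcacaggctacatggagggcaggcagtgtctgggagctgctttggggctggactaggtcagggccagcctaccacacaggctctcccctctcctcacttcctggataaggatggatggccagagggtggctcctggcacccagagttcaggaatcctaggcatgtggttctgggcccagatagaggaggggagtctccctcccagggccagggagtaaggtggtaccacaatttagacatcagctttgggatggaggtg
Cldn15: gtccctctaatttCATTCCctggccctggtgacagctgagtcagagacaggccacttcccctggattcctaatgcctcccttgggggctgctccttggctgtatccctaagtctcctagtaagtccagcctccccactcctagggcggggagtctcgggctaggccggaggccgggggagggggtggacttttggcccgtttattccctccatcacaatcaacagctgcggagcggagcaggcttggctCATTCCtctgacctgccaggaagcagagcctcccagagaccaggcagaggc
Dpp4: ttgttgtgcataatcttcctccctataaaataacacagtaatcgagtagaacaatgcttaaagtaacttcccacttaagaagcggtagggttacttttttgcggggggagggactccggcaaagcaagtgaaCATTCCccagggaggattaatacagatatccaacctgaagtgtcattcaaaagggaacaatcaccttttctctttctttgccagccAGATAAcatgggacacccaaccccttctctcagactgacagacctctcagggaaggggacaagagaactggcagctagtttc
The TEAD letters began 241 bases before the start in Upk3b, 237 and 1 before it in Cldn15 and 118 before it in Dpp4, where the GATA letters began 32 before it. Of 21 genes named as higher in mesothelial cells, 17 had a promoter in the table. Among these 17 promoters, 3 held the TEAD letters (Cldn15, Dpp4 and Myl7) and 3 the GATA letters (Dpp4, Fmod and Lgals2). Of all 32851 promoters of this length, 14.7% held the TEAD letters and 11.2% the GATA letters. Of the 7 rule genes, 4 were matched, with 5 promoters, of which 3 held the TEAD letters (Gpm6a, Lrrn4 and Upk3b) and 0 the GATA letters.

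Mesothelial cells were present in each library, and young 1 held more than any other library. They numbered 394, 9, 39, 125, 144 and 82 in young 1, young 2 and old 1 to old 4, or 14.5% (95% Wilson interval 13.2 to 15.8%), 0.963% (0.507 to 1.82%), 3.16% (2.32 to 4.29%), 4.36% (3.67 to 5.17%), 3.54% (3.02 to 4.15%) and 2.16% (1.74 to 2.67%) of kept barcodes. The intervals cover counting error only. The highest and the lowest shares were both from young mice, and all 4 old libraries lay between them. The mean was 7.72% ± 9.55 in young (SD, n = 2) and 3.31% ± 0.912 in old (SD, n = 4), a difference of -4.41 percentage points with an exact two-sided permutation p = 0.4, where the smallest p this design allows is 0.0667. Without young 1 the difference was +2.34 points.

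**Figure D1:**
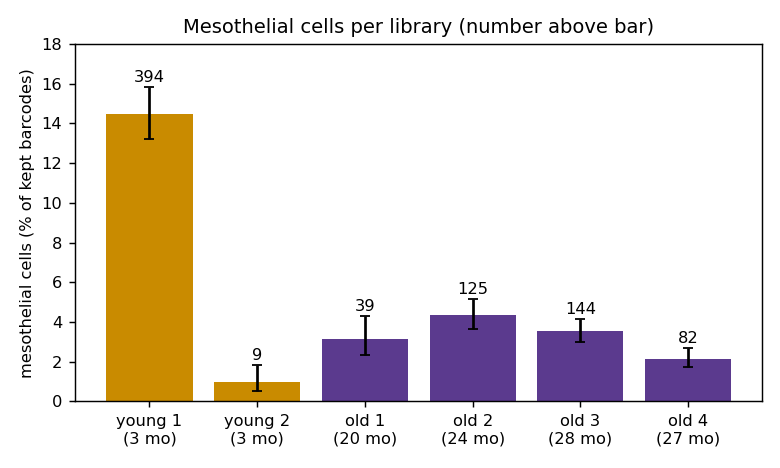
Mesothelial cells as a percentage of kept barcodes (vertical axis) in each of the 6 libraries (horizontal axis, with age in months). Bars are the share, lines its 95% Wilson interval and the numbers above them the cells. Young 1, at 14.5%, stands above all others, and young 2, at 0.963%, below.

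Depth differed between libraries. Mesothelial cells held a median of 1003.5, 595, 3467, 910, 6361 and 7016.5 UMIs in young 1, young 2 and old 1 to old 4, and their summed UMIs were 472965, 7507, 208668, 133626, 1079993 and 619813. In the 9 cells of young 2, 1 UMI equals 133 CPM (UMIs of a gene scaled to 1000000 UMIs of these cells in a library). Of those 9 cells, 4 carried the same barcode as a mesothelial cell of young 1, and these had 500 to 595 UMIs in young 2 against 3777 to 4686 in young 1, where they ranked 2, 3, 4 and 6 by depth among mesothelial cells. Whether these 4 are cells of young 2 was not tested, and 5 cells of young 2 remain without the barcodes that 2 libraries share. Across all cell types, young 1 and young 2 shared 156 kept barcodes, young 2 and old 2 shared 215, young 1 and old 2 shared 131, and no other pair more than 4. With at least 10 cells required per library, young 2 did not enter the fits against other cell types, and its values are given apart. Admitting it, at 5 cells per library, gave 1292 genes higher and 1345 lower than in fibroblasts and 1812 and 2309 against airway epithelium.

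The 7 genes of the rule are described without a test, since they chose the cells. Upk3b, a uroplakin of the apical membrane, stood at 1983 CPM in young 1 and at 2157, 1377, 2156 and 2188 CPM in old 1 to old 4, and Msln, the surface protein mesothelin, at 1298 and at 930, 711, 1367 and 1580 CPM. Muc16, the membrane mucin that binds mesothelin, stood at 793 CPM in young 1 and at 810, 1227, 1636 and 1978 CPM in the old. Wt1 stood at 545 CPM in young 1 and at 326, 644, 489 and 876 CPM in the old. For Upk3b, Msln and Wt1 young 1 lay within the range of the old. For Muc16, young 1 lay below all 4 old libraries. In young 2, where each value rests on 3 to 14 UMIs of these 4 genes, they stood at 1732 (Upk3b), 1865 (Msln), 400 (Muc16) and 666 CPM (Wt1). The glycoprotein Gpm6a ranged from 1946 to 4153 CPM over young 1 and the old libraries, the sodium pump partner Nkain4 from 670 to 1199 CPM and the leucine-rich repeat protein Lrrn4 from 397 to 679 CPM. A median cell held 9, 8, 29, 8, 50.5 and 69 UMIs of the 7 genes in young 1, young 2 and old 1 to old 4. At the threshold, the 36 cells with exactly 3 such UMIs held 1038 CPM of 8 markers outside the rule, 24 barcodes with 2 such UMIs held 1121 CPM, and 110 barcodes that failed only the ratio to other types held 1440 CPM. All 793 cells held 3533 CPM of these 8 markers, and 13331 barcodes without any rule UMI held 108 CPM.

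The label was then read against markers that the rule did not use, in young 1 and old 1 to old 4, beside fibroblasts and airway epithelial cells of the same libraries. With young 2 included, these classes held 2109 and 1007 cells, of which 34 and 302 were from young 2. Fibroblasts were chosen in the same way from Pdgfra, Dcn, Lum, Pi16, Scara5, Dpt and Col14a1. Epithelium was chosen from Epcam, Cdh1, Foxj1, Sec14l3, Cyp2f2, Elf3 and Cldn3. Those UMIs had to exceed 2 times the UMIs of Msln, Upk3b, Cdh5, Myh11, Ptprc, C1qa and Cd79a, with Pdgfra added for epithelium. Barcodes already called mesothelial were left out. Both classes were thus selected for few UMIs of Msln and Upk3b. Counts summed per library and class were compared with edgeR with the library as a block. As a measure of purity, the fibroblasts held 285 CPM of the endothelial gene Pecam1 and the epithelial cells 1631 CPM of the macrophage and alveolar gene Lyz2 (means of 5 libraries). Genes of any rule were left out of the counts, and since different cell types must differ at many genes, the tests describe the classes and are no check of the rule. Of 9252 genes tested against fibroblasts, 1228 were higher in mesothelial cells (13.3%) and 1408 lower (15.2%) at an adjusted p under 0.05, with a median log2 difference of -0.03. Of 10252 tested against airway epithelium, 1769 were higher (17.3%) and 2285 lower (22.3%), with a median of -0.09. Scaled by library size alone, 3356 were higher and 1424 lower than in epithelium, with a median of 0.43, so directions near 0 in that comparison depend on the scaling. UMIs were counted at the 3′ end and not scaled to length, so levels are compared within a gene only.

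Against fibroblasts, all 19 mesothelial markers that passed the filter on low counts were higher, of 20 on the list, with a median log2 difference of 4.13. Against airway epithelium, 12 of 19 were higher and 1, Krt8, lower (median 3.07). The filter keeps a gene that is high in only 1 class, so these counts are a description. Krt19, a keratin of simple epithelia, stood at 448 CPM in young 1 and at 681, 382, 762 and 912 CPM in old 1 to old 4, against 16.8 ± 19.3 CPM (SD, n = 5) in fibroblasts (log2 difference 5.80, SE 0.58, adjusted p = 0.000252). The lowest mesothelial library lay above the highest fibroblast library, at 44.3 CPM. Upk1b, the tetraspanin partner of uroplakins, stood at 626 CPM in young 1 and at 484, 726, 1037 and 715 CPM in the old, against 4.03 ± 7.68 CPM in fibroblasts (log2 difference 9.18, SE 0.53, adjusted p = 1.36e-06). Aldh1a2, the retinaldehyde dehydrogenase that makes retinoic acid, stood at 417 CPM in young 1 and at 585, 501, 332 and 284 CPM in the old, against 37.3 ± 19.8 CPM in fibroblasts (log2 difference 3.37, SE 0.45, adjusted p = 0.000926). None of the 3 genes overlapped between the classes. Bnc1, the zinc finger protein basonuclin, was at 137 ± 32.2 CPM against 2.78 ± 3.90 CPM. Pdpn, podoplanin, was the least different of the markers, at 322 ± 94.5 CPM against 203 ± 98.5 CPM. Calb2, calretinin, which marks human mesothelium, had 0 UMIs in young 1 and old 1 to old 3 and 1.61 CPM in old 4.

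**Figure D2:**
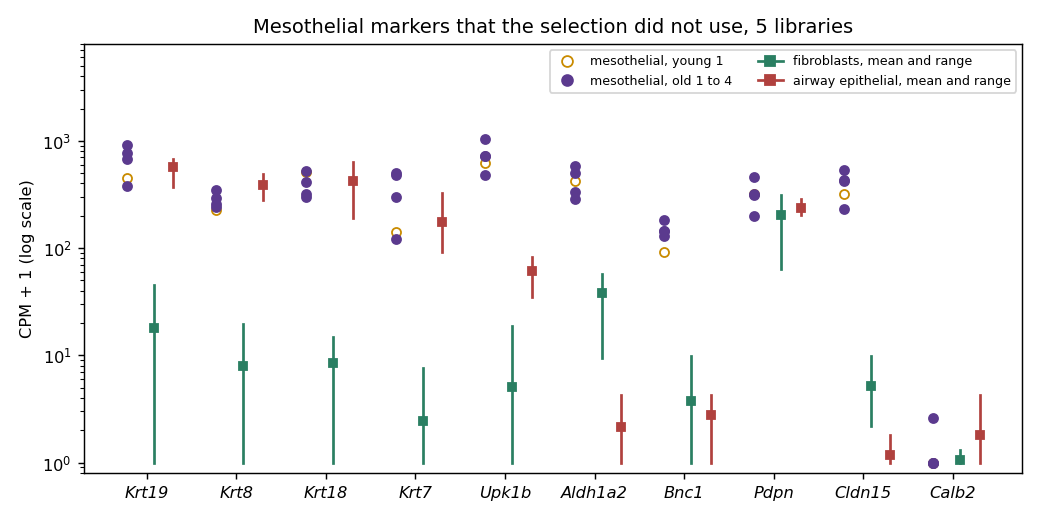
CPM + 1 on a log scale (vertical axis) of mesothelial markers that the selection did not use (horizontal axis), in mesothelial cells, fibroblasts and airway epithelial cells of 5 libraries. Circles are mesothelial cells of single libraries (open for young 1, filled for the old), and squares with lines are the mean and the lowest to highest library of the other classes. Krt19 is at 382 CPM or more in mesothelial cells of every library and at 44.3 CPM or less in fibroblasts.

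Of the keratins, Krt7, Krt8, Krt18 and Krt19 are those of simple epithelia and Krt14 of basal cells. Krt7, Krt8, Krt18 and Krt19 were each higher than in fibroblasts, by 5.66 to 7.45 on the log2 scale. Against airway epithelium, Krt19 was at 637 ± 220 against 574 ± 125 CPM (log2 difference -0.43, interval of 2 SE to either side -0.83 to -0.03, adjusted p = 0.0956), Krt18 at 412 ± 103 against 418 ± 181 CPM (-0.50, -0.97 to -0.03, adjusted p = 0.102) and Krt7 at 307 ± 180 against 175 ± 95 CPM (0.21, -1.02 to 1.44, adjusted p = 0.834). Krt8 was lower, at 273 ± 50.2 against 386 ± 90.3 CPM (log2 difference -1.02, SE 0.21, adjusted p = 0.000488). Krt14 had 79 UMIs in mesothelial cells against 1 in epithelium, a ratio of 109 with a 95% counting interval of 19.1 to 4371. Without TMM scaling the differences of Krt19, Krt18, Krt7 and Krt8 were 0.13, 0.06, 0.77 and -0.47, and none passed the threshold, Krt8 included (adjusted p = 0.0538).

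Junction genes differed from epithelium in both directions. Of 23 keratin and junction genes tested against airway epithelium, 6 were higher and 8 lower (median log2 difference -0.06), and 9 higher and 6 lower without TMM scaling. Claudin 15, a claudin that forms cation pores, stood at 319 CPM in young 1 and at 532, 232, 433 and 418 CPM in the old. The epithelial cells held 1 UMI of it, a ratio of 1411 with a 95% counting interval of 253 to 55798. Higher too were Cdh3, P-cadherin (130 ± 54.5 against 11.7 ± 8.52 CPM), Cldn10, another pore-forming claudin (172 ± 95.8 against 59.4 ± 2.57 CPM), and Ezr, which ties the membrane of microvilli to actin (824 ± 306 against 342 ± 72.8 CPM). Among the genes that seal tight junctions, Cldn4, Cldn7 and Ocln were near or at 0 in mesothelial cells and Cldn1 was not, with 23 UMIs against 0 in epithelium (at least 10.6-fold higher). Cldn4 had 0 UMIs against 81 in epithelium, at least 19.5-fold lower, Cldn7 had 3 against 693 UMIs and Ocln, occludin, 3 against 134 UMIs. Cdh1, E-cadherin, and Epcam served to choose the epithelial class and are given as values only, 6.86 ± 4.75 CPM and 21.1 ± 39.2 CPM in mesothelial cells against 265 ± 25.1 and 216 ± 31.7 CPM. Against fibroblasts, 16 of 19 genes of this list were higher and 1 lower, the ezrin relative Msn (114 against 197 CPM), with a median of 4.39.

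The genes with the largest log2 differences from fibroblasts follow. Myl7, the atrial myosin light chain, stood at 156 CPM in young 1 and at 283, 172, 135 and 584 CPM in old 1 to old 4. Mesothelial cells held 664 UMIs of it and fibroblasts 1, a ratio of 2797 with a 95% counting interval of 500 to 110632. The cardiac muscle genes Myh6, Actc1 and Nppa were at 0 in old 1, old 3 and old 4 and at or below 22.5 CPM in young 1 and old 2. Troponin I (Tnni3) was at 3.23 to 19.2 CPM in these 5 libraries, and the 7 cardiomyocyte markers, Myl7 included and the most abundant, summed to 195 CPM in young 1 and 302, 269, 148 and 595 CPM in the old. Chst4, a sulfotransferase of surface glycans, stood at 142 CPM in young 1 and at 187, 82.3, 180 and 152 CPM in the old, with 405 UMIs against 1 in fibroblasts (ratio 1706, interval 304 to 67543) and 0 in epithelium (at least 187-fold higher). Crb2, a Crumbs protein of apical polarity, had 230 UMIs against 1 in fibroblasts (ratio 969, interval 172 to 38429) and 0 in epithelium (at least 106-fold higher). The 4-transmembrane protein Tm4sf5, the leucine-rich repeat protein Slitrk4 and the galectin Lgals2 had 249, 221 and 281 UMIs against 1 each in fibroblasts, and all were at 0 in epithelium. Cst9, a cystatin protease inhibitor, had 295 UMIs against 3 in fibroblasts. In mesothelial cells each of these genes was detected in young 1 and all 4 old libraries.

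Kcnd2, the A-type potassium channel Kv4.2, stood at 706 CPM in young 1 and at 695, 1100, 1533 and 1668 CPM in old 1 to old 4, against 11.4 ± 14.2 CPM in fibroblasts (log2 difference 8.34, SE 0.75, adjusted p = 0.000289) and 2.44 ± 1.85 CPM in epithelium. Lgals7, the galectin of stratified epithelia, stood at 820 CPM in young 1 and at 1514, 494, 306 and 374 CPM in the old, against 7.39 ± 15.7 CPM in fibroblasts. Slc26a3, the chloride and bicarbonate exchanger best known from the colon, was at 170 ± 49.6 CPM against 1.03 ± 2.13 CPM. The lowest mesothelial library lay above the highest fibroblast library for all 3 genes. The genes lowest against fibroblasts were Ccl11, Inmt, Ptx3, Sfrp4, Gpm6b and Igsf10. Ccl11, the chemokine eotaxin, had 2 UMIs in mesothelial cells and 2028 in fibroblasts, 241-fold lower with an interval of 66.6 to 1989. Inmt, a methyltransferase of indole amines, had 4 UMIs against 4753 (1.02 ± 1.47 against 293 ± 232 CPM, log2 difference -7.92, SE 0.33, adjusted p = 7.30e-09). Sfrp4, a secreted inhibitor of Wnt signals, had 3 UMIs against 2696 and the pentraxin Ptx3 1 against 660. Gpm6b, the paralogue of the rule gene Gpm6a, had 2 UMIs against 1517.

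The genes with the largest differences from airway epithelium included Igfbp6, Gas1 and Tmem119. Igfbp6, which binds insulin-like growth factors, stood at 4144 CPM in young 1 and at 5684, 1616, 3543 and 4679 CPM in the old, against 1.79 ± 1.35 CPM in epithelium (log2 difference 10.3, SE 0.34, adjusted p = 4.08e-15). Gas1, a membrane co-receptor for hedgehog, varied little, at 1138 CPM in young 1 and 1045, 995, 1158 and 1100 CPM in the old, with 2822 UMIs against 3 (ratio 1302, interval 445 to 6315). Tmem119, a membrane protein known from bone and microglia, was at 305 ± 57.6 CPM with 0 UMIs in epithelium (at least 348-fold higher). All 3 were also higher than in fibroblasts, by 2.15, 1.85 and 2.98 on the log2 scale. Dpp4, the dipeptidyl peptidase CD26, was at 479 ± 254 CPM against 159 ± 57.4 CPM in fibroblasts (log2 difference 1.49, SE 0.24, adjusted p = 0.000454) and had 2 UMIs in epithelium (ratio 1038, interval 287 to 8582). The keratan sulfate proteoglycan Fmod, the surface enzyme Bst1, the Wnt enhancer Rspo1 and the immunoglobulin-like receptor Ildr2 had 745, 375, 882 and 995 UMIs against 1, 0, 1 and 1. The 6 genes lowest against epithelium, Muc5b, Scgb3a2, Scgb3a1, Reg3g, Bpifa1 and Bpifb1, are secreted products of airway cells. Muc5b, a gel-forming mucin, had 0 UMIs in mesothelial cells and 1949 in epithelium (at least 470-fold lower), and Bpifa1, an antimicrobial protein, was at 36.5 ± 32.6 CPM against 46751 ± 11737 CPM. The 9 airway epithelial markers summed to 266, 1732, 125, 816, 95.4 and 244 CPM in the mesothelial cells of young 1, young 2 and old 1 to old 4, highest in young 2 and old 2. All 9 were detected, the most abundant being the rule gene Scgb1a1, at 173, 1199, 33.5, 561, 14.8 and 103 CPM. Free RNA gives such UMIs in droplets, and its part in these values was not tested.

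**Figure D3:**
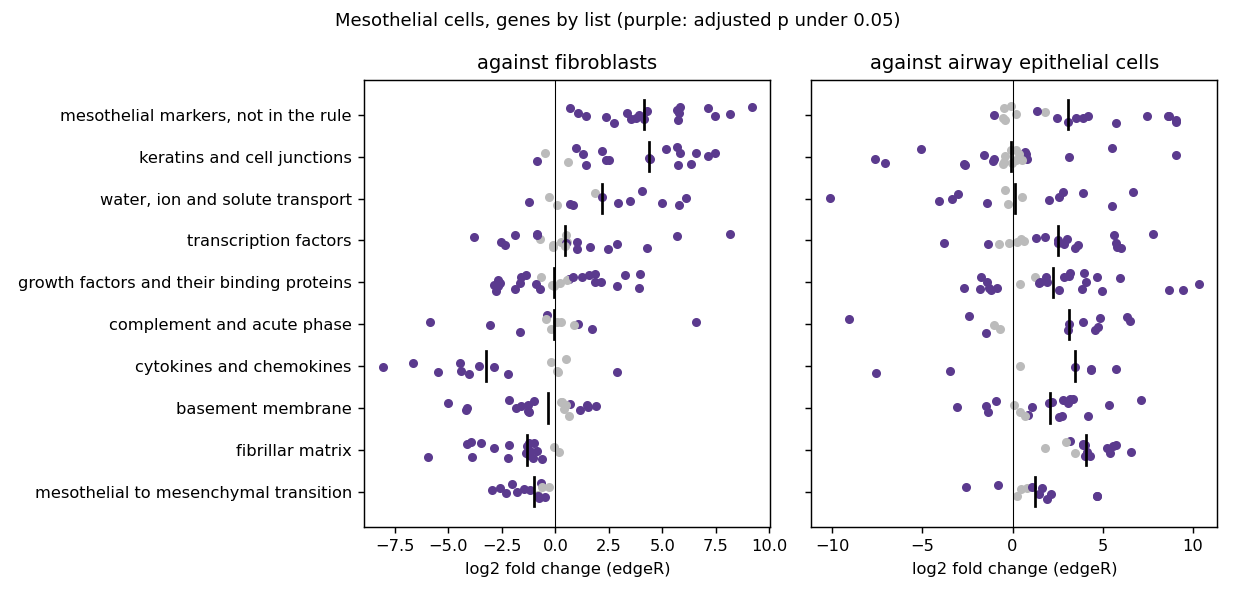
Log2 difference between mesothelial cells and fibroblasts (left) or airway epithelial cells (right) on the horizontal axis, for the genes of each list (vertical axis), with each point 1 gene, purple points at an adjusted p under 0.05 and black ticks at the median of a list. Fibrillar matrix genes lie below 0 or near it on the left (median -1.34) and above 0 on the right (median 4.08).

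The cells lay between fibroblasts and epithelium in their matrix. Of 19 fibrillar matrix genes tested, 0 were higher and 17 lower than in fibroblasts (median log2 difference -1.34), while against epithelium 13 of 16 were higher and 0 lower (median 4.08). Fn1, fibronectin, stood at 488 CPM in young 1 and at 0, 202, 109 and 75.8 CPM in old 1 to old 4, against 1698 ± 548 CPM in fibroblasts (log2 difference -3.89, SE 0.63, adjusted p = 0.0068). Col3a1, the type III collagen chain, did not pass the test, at 1518 ± 234 against 1617 ± 777 CPM (log2 difference -0.07, SE 0.30, adjusted p = 0.914). Fbln1, fibulin 1, did not pass it either, at 838 ± 227 against 684 ± 215 CPM. Among the 17 lower genes were Fbn1, fibrillin (125 against 1197 CPM), Mfap5 (103 against 1366 CPM) and Eln, elastin (233 against 408 CPM). Dcn, decorin, is a fibroblast rule gene and is given as values only, 4024 ± 789 CPM against 6962 ± 2694 in fibroblasts and 175 ± 58.4 CPM in epithelium.

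Genes of the basement membrane, the thin sheet on which mesothelium rests, differed from fibroblasts in both directions. Of 20 genes tested, 5 were higher and 10 lower than in fibroblasts (median -0.37). Nid2 and Nid1, the paralogous linker proteins nidogen 2 and 1, went in opposite directions. Nid2 stood at 86.7 CPM in young 1 and at 95.8, 89.8, 129 and 90.3 CPM in the old, against 25.7 ± 9.5 CPM in fibroblasts (log2 difference 1.92, SE 0.22, adjusted p = 1.79e-05). Nid1 stood at 74.0 CPM in young 1 and at 43.1, 44.9, 35.2 and 51.6 CPM in the old, against 786 ± 256 CPM (log2 difference -4.12, SE 0.22, adjusted p = 2.88e-08). Higher were also Lama5, the laminin chain of epithelial sheets, Agrn, Col4a3 and Col4a6 (157 against 64.2 CPM), and lower were Lama2 (32.1 against 482 CPM), Lamc1, Col4a1, Col4a2 and Col15a1 (1.86 against 69.2 CPM). Against epithelium, 13 of 20 were higher and 4 lower (median 2.10).

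Of 27 growth factors and their binding proteins, 11 were higher and 11 lower than in fibroblasts (median -0.05). Rspo1, an R-spondin that strengthens Wnt signals, stood at 218 CPM in young 1 and at 235, 180, 450 and 355 CPM in the old, against 17.6 ± 11.9 CPM (log2 difference 3.91, SE 0.23, adjusted p = 6.48e-08). Fgf9, a growth factor known from embryonic mesothelium, was at 50.1 ± 22.4 against 4.30 ± 3.73 CPM, and Fgf1 at 200 ± 58.6 against 14.5 ± 17.4 CPM. The fibroblast growth factors of stroma went the other way, with 3 UMIs of Fgf7 against 500 and 2 of Fgf10 against 576. Igfbp5, an insulin-like growth factor binding protein, stood at 9569 CPM in young 1 and at 7538, 8239, 10901 and 11342 CPM in the old, against 5713 ± 1378 CPM (log2 difference 0.62, SE 0.11, adjusted p = 0.000658), while Igfbp4 (883 against 2032 CPM) and Igfbp7 (483 against 732 CPM) were lower. The vascular growth factors Vegfa (62.7 against 173 CPM), Vegfc and Vegfd were lower too. Against epithelium, 17 of 26 genes were higher and 7 lower (median 2.24).

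Chemokines of the fibroblasts were mostly lower, 9 of 14 cytokines and chemokines tested, with 1 higher (median -3.24). The exception was Il18, an interleukin of epithelia and macrophages, at 115 ± 37.7 against 16.1 ± 9.65 CPM (log2 difference 2.89, SE 0.28, adjusted p = 4.31e-06). Cxcl12, which holds leukocytes and progenitors in place, was at 1.67 ± 1.91 against 206 ± 125 CPM, and Il6 at 5.74 ± 5.96 against 376 ± 523 CPM. Il33, an alarmin, was at 329 CPM against 3.20 CPM in epithelium. Of 12 complement and acute phase genes tested against fibroblasts, 3 were higher and 4 lower (median -0.07). C3, the central complement protein, stood at 9136 CPM in young 1 and at 5952, 5096, 6657 and 3788 CPM in the old, against 2817 ± 1124 CPM (log2 difference 1.05, SE 0.29, adjusted p = 0.0353), and Slpi, a protease inhibitor of mucosal fluids, was at 708 ± 529 against 16.3 ± 25.9 CPM. Rarres2, the chemoattractant chemerin, was at 3767 ± 751 against 529 ± 147 CPM (log2 difference 2.73, SE 0.15, adjusted p = 3.90e-08). Hp, haptoglobin, had 2 UMIs against 472. Against epithelium, 8 of 13 complement genes were higher and 3 lower (median 3.16), as were 4 of 7 cytokines with 2 lower (median 3.46).

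Transporters of water and ions were mostly higher than in fibroblasts, 9 of 13, with 1 lower (median 2.18). Aqp1, the water channel of mesothelium and capillaries, stood at 727 CPM in young 1 and at 1021, 456, 1254 and 1223 CPM in the old, against 134 ± 105 CPM (log2 difference 2.91, SE 0.37, adjusted p = 0.000548). Slc39a8, a zinc and manganese importer, was at 331 ± 80.2 against 4.58 ± 3.05 CPM, the lactate carrier Slc16a1 at 299 ± 54.5 against 24.4 ± 15.7 CPM, and Cftr, the chloride channel, at 54.8 ± 24.5 against 2.91 ± 3.80 CPM. The sodium pump subunit Atp1b1 (662 against 52.4 CPM) and Slc9a3r1, the scaffold that binds ezrin (424 against 17.0 CPM), were higher as well. Against epithelium, 6 of 14 were higher and 5 lower (median 0.14). Lower there were the epithelial water channels Aqp5 (34.1 against 364 CPM) and Aqp3 (0 UMIs against 718, at least 173-fold lower), and the sodium channel subunit Scnn1a (26.8 against 176 CPM).

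Among the transcription factors, 9 of 22 were higher than in fibroblasts and 6 lower (median 0.47). Sox6, which acts in cartilage and muscle, stood at 685 CPM in young 1 and at 268, 861, 872 and 1133 CPM in the old, against 36.4 ± 13.7 CPM (log2 difference 4.30, SE 0.24, adjusted p = 4.83e-08). Tbx18, a T-box factor of the epicardium, was at 158 ± 40.8 against 21.0 ± 6.77 CPM. Gata5, a cardiac and endodermal GATA factor, was at 56.4 ± 17.6 against 1.01 ± 1.5 CPM and had 0 UMIs in epithelium (at least 69.2-fold higher). Gata4 (107 ± 50.8 against 32.9 ± 31.2 CPM) passed the test and Gata6 did not (281 against 172 CPM, adjusted p = 0.0793). Tcf21, a factor of stromal progenitors, was lower, at 5.52 ± 1.39 against 70.1 ± 30.0 CPM. Against epithelium, 13 of 20 were higher and 2 lower (median 2.53).

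Surface glycoproteins split, 7 of 15 higher and 5 lower than in fibroblasts (median 0.31) and 8 of 15 higher and 4 lower than in epithelium (median 1.38). Gpc3, a glypican, was at 1743 against 443 CPM in fibroblasts, Bcam, a laminin receptor, at 500 against 37.9 CPM, and Cd200, an immune checkpoint ligand, at 388 against 117 CPM. The hyaluronan synthases were lower, Has1 at 115 against 303 CPM and Has2 with 3 UMIs against 554. Of 12 retinoid genes, 3 were higher than in fibroblasts (Aldh1a1, Aldh1a2 and Rarres2) and 7 lower (median -0.87). Among the lower was Aldh1a3, another retinaldehyde dehydrogenase (2.75 against 141 CPM). Against epithelium, 3 of 11 retinoid genes were higher and 5 lower (median -0.88), with Aldh1a1 on the lower side there (432 against 2176 CPM).

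Genes tied to mesenchymal transition were not higher than in fibroblasts, with 0 of 14 higher and 11 lower (median -1.01), and against epithelium 7 of 12 were higher and 2 lower (median 1.27). Vim, vimentin, was at 1093 ± 497 CPM, against 1728 ± 737 in fibroblasts (log2 difference -0.77, SE 0.17, adjusted p = 0.00385) and 51.1 ± 92.9 in epithelium (log2 difference 4.70, SE 0.72, adjusted p = 0.00444). Acta2, smooth muscle actin, stood at 23.3 CPM in young 1 and at 38.3, 15.0, 170 and 315 CPM in the old, and did not pass the test against either class. The 7 smooth muscle markers, of which Acta2 is one and the most abundant, summed to 95.1 CPM in young 1 and 163, 127, 416 and 573 CPM in old 1 to old 4, and their part in the level of Acta2 was not tested. Fibrinolysis genes were 0 higher and 6 lower of 11 against fibroblasts (median -1.19), among them the plasminogen activator Plat (131 against 327 CPM), and 4 higher and 3 lower of 11 against epithelium (median -0.19). Of 10 YAP and TEAD targets, 2 were higher, Ajuba and Crim1 (821 against 217 CPM), and 4 lower, among them Ccn1 and Ccn2 (median 0.08), and against epithelium 4 were higher and 3 lower (median -0.51). Of the senescence genes, 0 of 10 were higher and 5 lower than in fibroblasts (median -0.76), and 2 of 7 higher and 0 lower than in epithelium (median 0.82), or 5 of 7 without TMM scaling (median 1.34). Of immediate early and heat shock genes, 0 of 19 were higher and 5 lower than in fibroblasts (median -0.16), and 1 higher and 7 lower than in epithelium (median 0.11), where without TMM scaling 5 were higher and 2 lower. Only 1 and 2 proliferation genes could be tested, and 0 were called.

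Kdr, Esam and Csf1r, better known from endothelium and macrophages, were higher than in fibroblasts. Of 5 endothelial markers tested against fibroblasts, 2 were higher and 2 lower (median -2.86). Of the macrophage markers only 1, Csf1r, could be tested there. Kdr, the main VEGF receptor of endothelium, stood at 252 CPM in young 1 and at 173, 172, 259 and 347 CPM in old 1 to old 4, against 8.48 ± 8.76 CPM in fibroblasts (log2 difference 4.43, SE 0.36, adjusted p = 3.14e-06). Esam, an endothelial adhesion molecule, stood at 254 CPM in young 1 and at 393, 150, 274 and 292 CPM in the old, against 49.8 ± 62.7 CPM in fibroblasts (log2 difference 2.77, SE 0.43, adjusted p = 0.00143). The endothelial genes Cldn5, Tie1 and Egfl7, and the rule gene Cdh5, were at 0 in young 1, old 1, old 2 and old 4 and between 1.85 and 15.7 CPM in old 3, while Pecam1 ranged from 0 to 97.3 CPM and Vwf from 0 to 58.3 CPM over these 5 libraries. The 9 endothelial markers, Kdr and Esam included, summed to 552 CPM in young 1 and 604, 434, 676 and 644 CPM in the old. Csf1r, the receptor for colony stimulating factor 1, stood at 123 CPM in young 1 and at 57.5, 82.3, 71.3 and 123 CPM in the old, against 3.48 ± 3.80 CPM in fibroblasts (log2 difference 3.72, SE 0.31, adjusted p = 1.16e-06). The macrophage genes C1qb and C1qc and the rule gene C1qa were at 0 in old 1 and old 2 and at 17.6 CPM or less elsewhere. The 9 macrophage markers, Csf1r and the rule gene C1qa included, summed to 180, 71.9, 157, 181 and 152 CPM in young 1 and old 1 to old 4, with Lyz2 at 8.46, 0, 29.9, 43.5 and 8.07 CPM and Cd68 at 21.1, 9.58, 29.9, 6.48 and 12.9 CPM. The part of macrophage RNA in the level of Csf1r was not tested. Of 7 T cell markers, 5 were at 0 throughout.

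The effect of age on expression rests on 1 young library of 394 cells and another of 9. With at least 10 cells required, only young 1 remained, and its values were set beside the range of the 4 old libraries without a test. Young 1 lay above all 4 in 1115 of 8581 genes (13.0%) and below all 4 in 1691 (19.7%). By at least 2-fold these were 56 and 239. A gene entered if more than 5% of cells held a UMI of it in at least 3 of these 5 libraries. The deeper libraries old 1, old 3 and old 4 could thus admit a gene low in young 1. A gene high in young 1 alone could not enter. The counts above and below are therefore not compared with each other. In counts summed over the cells of a library, a change in the mix of cells and a change in RNA per cell look alike. Which of them lies behind these counts was not tested.

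Fibrillar matrix genes were more often at the top in the young library, 11 of 16 above all 4 old libraries, against 13.0% of all genes. Col1a1, the type I collagen chain, stood at 533 CPM in young 1 and at 335, 397, 343 and 237 CPM in old 1 to old 4. Col1a2 stood at 871 CPM in young 1 and at 542, 561, 612 and 674 CPM in the old, and Fbln1 at 1228 CPM and at 843, 681, 725 and 710 CPM. The others were Col3a1, Col5a1, Col5a2, Col6a1, Col6a2, Bgn, Fn1 and Mfap5, and 1 of the 16 lay below the old range. Dcn, a rule gene that is not among the 16, lay below it too (2685 CPM against 4112 to 4745 CPM). With the rule genes, Dcn included, all 22 genes of the list summed to 10204 CPM in young 1 and 9484, 10776, 10714 and 10460 CPM in old 1 to old 4. In the edgeR fit of old against young that admits young 2, given below, Col3a1, Col5a1, Col5a2 and Fn1 did not pass the threshold. The log2 difference there was 0.04 (SE 0.67) for Col3a1 and -0.28 (SE 0.60) for Col5a2. Results of that fit for the other genes of the 11 are not given here. In young 2, on 4 and 8 UMIs, Col1a1 was at 533 and Col1a2 at 1066 CPM, while Fbln1, on 3 UMIs, was at 400 CPM, below every old library. In fibroblasts, 5 of 19 fibrillar matrix genes lay above all old libraries in young 1, where 19.1% of all genes did.

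Immediate early and heat shock genes followed a single old library. Old 3 was the lowest of the 5 libraries in 18 of 19 of them, against 10.1% of all genes. Fos, a component of AP-1, stood at 3569 CPM in young 1, 3197 CPM in young 2 and 1965, 4183, 237 and 1460 CPM in old 1 to old 4. Dusp1, a phosphatase induced by stress, stood at 1444, 1199, 1083, 1819, 71.3 and 581 CPM in the same order. In fibroblasts, old 3 was the lowest in 17 of the 19, against 9.53% of all genes, and in airway epithelium in 14 of the 19, against 14.8%.

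**Figure D4:**
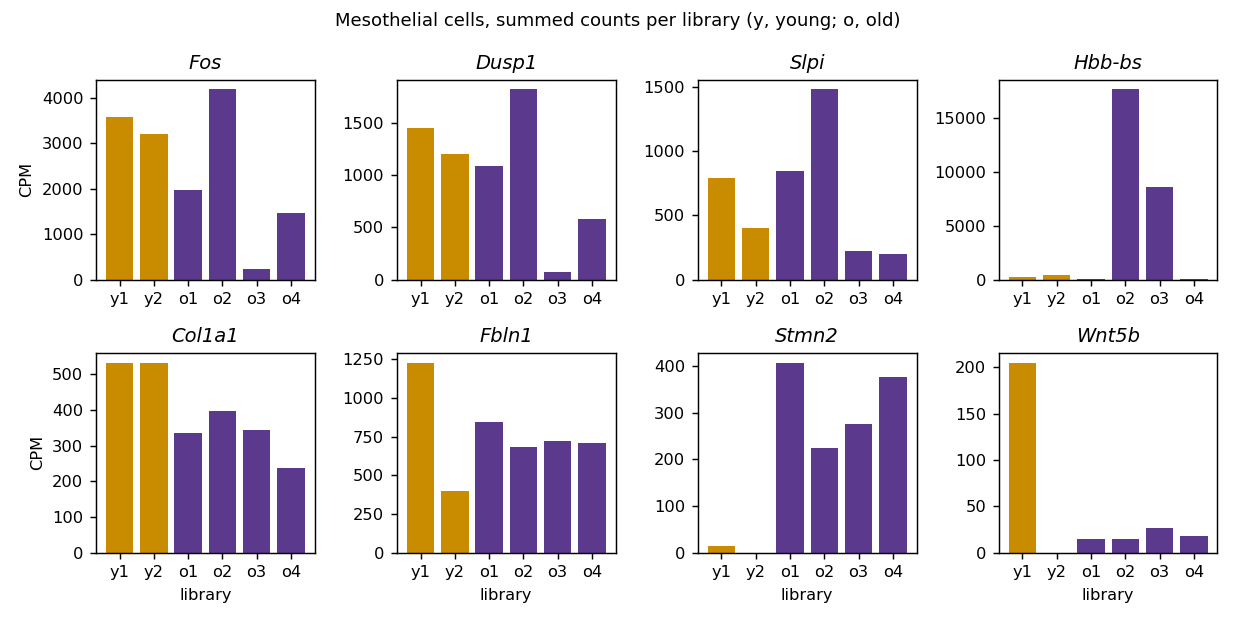
CPM in mesothelial cells (vertical axes, linear from 0) of Fos, Dusp1, Slpi, Hbb-bs, Col1a1, Fbln1, Stmn2 and Wnt5b in young 1 and young 2 (y1, y2) and old 1 to old 4 (o1 to o4), with each bar the summed counts of 1 library. Fos falls to 237 CPM in old 3, and Stmn2 is at 14.8 CPM or less in both young libraries.

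Admitting young 2, with at least 5 cells per library, a fit of old against young with edgeR called 5 of 8734 genes higher in old (0.0572%) and 27 lower (0.309%). Without the barcodes kept in 2 libraries, these were 8 and 28. The median log2 difference of all genes was 0.16. Without young 2, 0 were higher and 3 lower, with 438 genes at an unadjusted p under 0.05, where the lone young library is assumed to vary like the old. Without young 1, the young group is the 7507 UMIs of young 2, the median log2 difference of all genes was 6.07 and 0 genes were called by edgeR (478 at an unadjusted p under 0.05), so that fit is not read. Stmn2, stathmin 2, a microtubule protein of neurons, stood at 14.8 CPM in young 1 (7 UMIs), 0 in young 2 and 407, 225, 275 and 376 CPM in the old (log2 difference 4.40, SE 0.94, adjusted p = 0.00203). The call of Stmn2 was lost without young 2 (log2 difference 4.31) and at 1000 UMIs (3.81), where young 1 was the only young library. Ptprb, an endothelial phosphatase, had 1 UMI in young 1, 0 in young 2 and 134, 22.5, 88.9 and 14.5 CPM in the old (log2 difference 4.70, SE 1.08, adjusted p = 0.00804). Its call was lost by library size alone (log2 difference 4.77, adjusted p = 0.487) and by DESeq2 (4.13, adjusted p = 1.00). It was also lost at 1000 UMIs (7.86) and without young 2 (4.69), where young 1 was the only young library.

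Of the genes lower in old mice, Rap1gap and Nsun2 drew most of their UMIs in young 1 from 1 cell. Rap1gap, which switches off the GTPase Rap1, stood at 239 CPM in young 1 against 52.7, 22.5, 29.6 and 25.8 CPM in the old (log2 difference -2.72, SE 0.55, adjusted p = 0.000829), and 100 of its 113 UMIs in young 1 came from 1 cell. The call was lost by DESeq2 (log2 difference -2.48, adjusted p = 1.00), without old 3 (-2.52, adjusted p = 0.313) and without old 4 (-2.44, adjusted p = 0.305). It was also lost without young 2 (-3.03), where young 1 was the only young library. Nsun2, an RNA methyltransferase, had 92 of 114 UMIs in 1 cell. Wnt5b, a Wnt ligand of the growth factor list, stood at 205 CPM in young 1, 0 in young 2 and 14.4, 15.0, 26.9 and 17.7 CPM in the old (log2 difference -3.14, SE 0.54, adjusted p = 1.85e-05), with 37 of 97 UMIs in 1 cell. Its call was lost by DESeq2, which called 0 genes lower in old. In fibroblasts, Wnt5b was at 283 CPM in young 1, 0 in young 2 and 89.3, 54.9, 26.1 and 38.8 CPM in old 1 to old 4. Wee1, a brake on entry into mitosis, was at 84.6 CPM in young 1 against 10.2 to 33.5 CPM in the old, with no more than 4 of its 40 UMIs in 1 cell (log2 difference -2.23, SE 0.57, adjusted p = 0.034). Its call was lost by library size alone (adjusted p = 0.0815), by DESeq2 (adjusted p = 1.00), without young 2 (adjusted p = 0.582) and under 6 other alternatives. For Rap1gap, Nsun2, Wee1, Lrfn5, Stard9 and Fbxw9 the value in young 2 was 133 CPM, a single UMI.

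Cdkn1a, the cell cycle inhibitor p21, stood at 133 CPM in young 1, 0 in young 2 and 427, 180, 302 and 476 CPM in the old. Young 1 lay below all 4 old libraries, as in 19.7% of all genes, and the gene did not pass the test (log2 difference 1.63, SE 0.70, adjusted p = 0.562). Gata4 stood at 29.6 CPM in young 1 (14 UMIs) and at 134, 82.3, 141 and 150 CPM in the old (log2 difference 2.11, SE 0.74, adjusted p = 0.308). The 10 proliferation genes summed to 230 CPM in young 1, 0 in young 2 and 115, 105, 54.6 and 77.4 CPM in old 1 to old 4, highest in young 1. The most abundant, Pcna, a clamp of DNA replication, stood at 84.6 CPM in young 1 and at 76.7, 89.8, 47.2 and 54.9 CPM in the old, where old 2 lay above young 1. Top2a, the topoisomerase of dividing cells, had 12 UMIs in young 1 and Mki67, the Ki-67 antigen, 4, and in the old libraries Mki67 was at 0.926 CPM in old 3 and 0 in the others.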

How the data were processed

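Per the labels and the study's methods, the authors trimmed reads with Cutadapt, aligned them to GRCm38.p6 and counted UMIs with STARsolo. The deposited values are unnormalized counts for all barcodes. The files list 53647 genes by symbol. Their versioned identifiers mostly did not match the annotation at hand, so no gene coordinates are given beyond RefSeq promoters.

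The cells and the gene lists were chosen with earlier results of these data known. Counts were summed per library and class, with at least 10 cells each, and compared with edgeR 4.0.16 (TMM, robust quasi-likelihood test, library as a block, Benjamini-Hochberg, threshold 0.05) under R 4.3.3. A gene entered a test if more than 5% of the cells of either class held a UMI of it, in at least 3 libraries. Old and young shares were compared with an exact permutation test. Named genes were the 7 rule genes, members of the lists, and per comparison the 12 highest and 6 lowest by log2 difference that passed the threshold, kept their direction in every library and reached 50 CPM, without predicted, mitochondrial and ribosomal genes. Where a class held 0 UMIs, a bound against 3 counts over the class is given, and with 1 to 3 UMIs a ratio with its 95% counting interval. These cover counting error only. Folds of young 1 over the old mean used a pseudocount of 10 CPM.

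Doublets were marked with scrublet in scanpy 1.11.5, which marked 4 mesothelial cells, all in old 3, and fewer than 0.5% of the barcodes of young 1, old 1, old 2 and old 4, so it cannot be relied on there. They were left in and removed as an alternative. Other alternatives were library size alone, DESeq2 1.42.0, other gene filters, at least 1000 UMIs and 500 genes per barcode, at least 5 rule UMIs, cells thinned to 500 UMIs, no library block, a minimum of 5 cells per library, each library left out, and, chosen after seeing the data, removal of barcodes kept in 2 libraries. The fits were tested on simulated data. Python 3.11.15, numpy 2.4.6, scipy 1.17.1, pandas 2.3.3 and matplotlib 3.10.9 served the rest.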

Additional observations from a re-analysis of the deposited data

Results flagged for a closer look

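Among the 4 old libraries, 38 values were examined for a library far from the other three, and chance flags about 1 in 20. In 3 genes a library stood apart (gap over range above Dixon's 0.829). Lgals2 was at 201 CPM in old 1, above 75.8 to 96.3 CPM in the others. Lgals7 was at 1514 CPM in old 1, above 306 to 494 CPM. Slc26a3 was at 240 CPM in old 3, above 127 to 145 CPM.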

How the results depend on the processing

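The difference in share between old and young was -3.46 to -6.77 points of kept barcodes in the alternatives that kept all libraries, -16.9 points as a share of mesothelial, fibroblast and epithelial cells alone, and -11.2 to 2.34 when 1 library was left out, and it reversed without young 1 (2.34). Against fibroblasts, leaving out 1 library gave 649 to 1174 genes higher and 745 to 1322 lower. It was 649 and 788 without old 3, of 5208 genes tested, and 650 and 745 without old 4, of 5196, which is 27.6% and 26.8% called against 28.5%. Thinning to 500 UMIs gave 442 and 483 of 2215 genes tested, and no library block (no replicate block) 817 and 823. Against airway epithelium, leaving out 1 library gave 1254 to 1681 higher and 1490 to 2030 lower and thinning 581 and 517, and library size alone 3356 and 1424. Lower genes numbered 1490 without old 4.

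Of old against young, leaving out 1 library gave 0 to 14 genes higher and 0 to 58 lower. These were 14 and 31 of 5266 genes tested without old 1, and 14 and 58 of 8681 without old 2. They were 1 and 1 of 5202 without old 3, and 1 and 3 of 5198 without old 4. Counts of higher and lower genes were 3 and 11 by library size alone, 3 and 0 by DESeq2 (103 at an unadjusted p under 0.05), 3 and 7 with filterByExpr and 0 and 3 at 1000 UMIs, and 8 were higher after removing barcodes kept in 2 libraries. The share of genes with young 1 above the old range was 18.4 to 24.2% and below it 16.3 to 33.9% when 1 old library was left out. Above, it was 24.2% without old 1, 19.6% without old 3 and 20.2% without old 4, and below, 30.7% without old 1 and 33.9% without old 2. No paired analysis was possible because the labels give no replicate numbers shared between young and old libraries. The 18 genes named against fibroblasts and the 18 against epithelium kept direction and call wherever an alternative tested them (278 and 287 values). Crb2, Tm4sf5, Ptx3, Sfrp4, Igsf10 and Bst1 were not tested in thinned cells, and Cst9 not there, nor without old 1, old 3 or old 4, nor without barcodes kept in 2 libraries. Of 106 values of the genes named for age, 58 lost the call. Both counts include the fit without young 1, which is not read. A range over 3 old libraries is narrower, and fewer genes passed the filter without old 1, old 3 or old 4, by construction. The cause of the other changes was not tested. A single UMI equals 2.11, 133, 4.79, 7.48, 0.926 and 1.61 CPM in young 1, young 2 and old 1 to old 4, which limits what can be seen of low genes.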

Other observations

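Among 510 genes detected in over 20% of mesothelial cells in young 1, old 2, old 3 and old 4, those most variable between cells in all 4 libraries included Igfbp5, C3, Slpi, Mgp, Lgals1, S100a6 and Crip1. The variance of Slpi was 9.01, 16.2, 11.6 and 13.6 times that of counting alone in the 4 libraries, and it was detected in 25.1%, 32.0%, 25% and 35.4% of cells. C3 was detected in 99.7%, 96.8%, 97.2% and 98.8% of cells, with a ratio of 3.32, 2.69, 29.8 and 12. The variance of counting alone was taken at the depth of each cell. For the same relative spread this ratio is larger where counts are higher. It is therefore not compared between genes or between libraries of unlike depth. Hbb-bs, a haemoglobin chain of red cells, stood at 241 CPM in young 1, 400 CPM in young 2 and 19.2, 17654, 8620 and 29.0 CPM in old 1 to old 4, and the same 2 libraries led in fibroblasts, where it reached 18412 CPM.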
